A study of Mus musculus with 4 samples.

Results

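Cells with more than 3000 detected genes made up 529 of the 7178 cells in 4 single-cell RNA libraries of mouse skin around a healing wound. They were chosen by 2 measured values: over 3000 genes with at least 1 unique molecular identifier (UMI, the tag that counts 1 captured mRNA molecule), and at most 10% of UMIs from mitochondrial genes. Cells of this kind are often dropped on the ground that they may be doublets, droplets that caught a pair of cells. The question was which marker genes, cell cycle genes and pairs of markers of different lineages these cells held, beside the 6443 cells of 200 to 3000 genes in the same libraries.

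Macrophages clear debris from a wound, and they can fuse into large cells with many nuclei, of which the bone-resorbing osteoclast is the best known. A fused or dividing cell holds more RNA than a resting cell of its own lineage, so more of its genes are detected. A doublet holds more RNA too, but it can join transcripts of different lineages, such as the T cell receptor complex and the complement genes of macrophages.

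The mice were C57/BL6j animals, 6 weeks old, with a full-thickness punch wound in the skin. Control mice were given PBS, and hucMSC-Exo mice were given 100 micrograms of exosomes, the small vesicles shed by human umbilical cord mesenchymal stem cells, at 4 sites around the wound every 48 hours. Skin was taken on day 7 and processed by 10x droplet sequencing, with 2 libraries per group and 1 mouse per library. The tissue was dissociated, red and dead cells were removed, and no sort for leukocytes is described.

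GEO's labels disagree in places. Cell type is given as skin cells, while the tissue field names parts of the gut. Groups were taken from the sample titles, although letters in the deposited names pair the libraries otherwise, Control 1 with hucMSC-Exo 1 and Control 2 with hucMSC-Exo 2. Every direction between groups below rests on the titles. The larger neutrophil-like cluster held 48 cells in Control 1, 323 in Control 2, 92 in hucMSC-Exo 1 and 481 in hucMSC-Exo 2, and in this the libraries that share a letter were more alike than those that share a title. Which of the 2 pairings gives the groups could not be told from the files. Depth was 6657095 UMIs in 1098 cells of Control 1, 16950639 in 2422 cells of Control 2, 8198377 in 1539 cells of hucMSC-Exo 1 and 10270615 in 2119 cells of hucMSC-Exo 2. Across the libraries, 6 cell barcodes occurred more than once.

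The cells over 3000 genes were above all macrophage-like, and the group with the most genes was a single osteoclast-like cluster. Of the 529 cells, 316 lay in macrophage-like clusters, 68 in dendritic cell-like, 63 in T cell-like, 24 in fibroblast-like and 21 in keratinocyte-like clusters. Another 23 lay in unnamed clusters, 9 in the NK cell-like cluster, 4 were plasmacytoid dendritic cell-like and 1 was group 2 innate lymphoid cell-like. The unnamed clusters of these 23 cells were led by Col27a1 and by Foxp3, and T cell markers were their best list. In them 6 of 6 and 17 of 17 cells over 3000 genes had 2 or more UMIs of T cell genes. These cells are not counted in the 63. Neutrophil-like cells, whose larger cluster had a median of 2103.5 UMIs, gave 0 of 1039, and basophil-like and mast cell-like cells gave none.

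The share of cells over 3000 genes was higher in both Control libraries than in both hucMSC-Exo libraries. The share was 106 of 1058 kept cells in Control 1 (10.0%, 95% Clopper-Pearson interval 8.28 to 11.99) and 279 of 2353 in Control 2 (11.9%, 10.6 to 13.2). It was 75 of 1491 in hucMSC-Exo 1 (5.03%, 3.98 to 6.26) and 69 of 2070 in hucMSC-Exo 2 (3.33%, 2.60 to 4.20). By title the groups did not overlap, with means of 10.9% ± 1.30 (SD, n = 2) and 4.18% ± 1.20 (SD, n = 2). The two-sided exact permutation test gave p = 0.333, the smallest p that 2 libraries against 2 allow. At over 4000 genes the difference fell from -6.76 to -1.53 points and the groups overlapped (exact permutation p = 0.667). Depth moved the same way as the share: the median of cells of 200 to 3000 genes was 4262.5 and 4392.5 UMIs in the Control libraries and 3747 and 3752 in the hucMSC-Exo libraries, and its part in the share was not tested. Paired by the letters in the deposited names instead, 10.0% and 5.03% stand beside 11.9% and 3.33%, and the pairs overlap. Intervals cover counting error only. Another 2 cells of Control 2 were over 3000 genes but past the mitochondrial limit.

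The depth of these cells differed from that of the others by several fold, as the rule fixes. Their median was 15058.5 UMIs in Control 1, 17682 in Control 2, 20033 in hucMSC-Exo 1 and 14811 in hucMSC-Exo 2, beside 4262.5, 4392.5, 3747 and 3752 UMIs in cells of 200 to 3000 genes. They ranged from 8822 to 56220 UMIs and up to 6645 genes. They held 27.2%, 32.5%, 20.2% and 10.8% of all UMIs of their libraries in that order. The median mitochondrial share, which the rule limits on both sides, was 3.24%, 3.29%, 3.47% and 2.72%, beside 3.24%, 2.60%, 2.92% and 2.36% in the other cells.

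The cells on either side of the limit were compared in a window of 100 genes. Just inside it, at 3001 to 3100 genes, 57 cells had a median of 13151 UMIs, and 25 of them were macrophage-like, 13 T cell-like and 13 dendritic cell-like. Just outside it, at 2901 to 3000 genes, 93 cells had a median of 11836 UMIs, and 47 were macrophage-like, 18 T cell-like and 16 dendritic cell-like. The osteoclast-like cluster gave 2 of the 57 and 9 of the 93. By library, macrophage-like cells were 69.2% inside and 29.4% outside in Control 1, but 30.8% and 55.6% in Control 2, 60.0% and 75.0% in hucMSC-Exo 1 and 38.5% and 42.9% in hucMSC-Exo 2, so the libraries did not agree in direction. No cell on either side held both T cell and phagocyte markers.

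**Figure D1:**
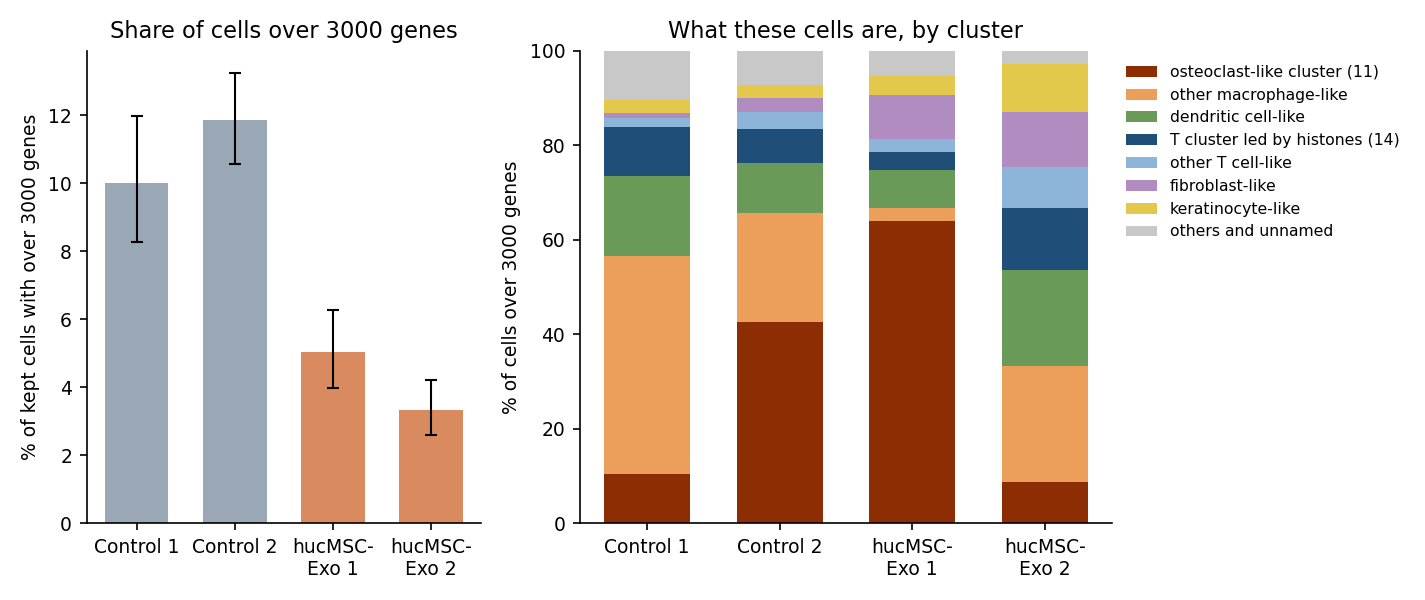
Left, the percentage of kept cells with over 3000 genes in each library, with 95% Clopper-Pearson intervals for counting error as error bars; right, the percentage of those cells in each group of clusters. Both Control bars (10.0% and 11.9%) stand above both hucMSC-Exo bars (5.03% and 3.33%), while the osteoclast-like cluster ranges from 8.70% to 64.0% with no order by group.

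Of the 23 clusters, the osteoclast-like one had the highest share of its cells over 3000 genes, 184 of 220 (83.6%). Its leading genes were Ctsk, the collagen-degrading protease cathepsin K; Slc9b2, a sodium-proton exchanger; Acp5, tartrate-resistant acid phosphatase; Atp6v0d2, a subunit of the proton pump; and Ocstamp, a membrane protein needed for the fusion of osteoclast precursors. In mm10, Ctsk lies on chromosome 3 at 95499256 to 95509362, Acp5 on chromosome 9 at 22126727 to 22135711 and Ocstamp on chromosome 2 at 165393760 to 165400405. The 184 cells had a median of 24320 UMIs, against 10598.5 in the 36 cells of the cluster below the limit.

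This cluster took a growing part of the cells as the number of genes went up. It held 33 of 259 cells at 3001 to 3500 genes (12.7%), 38 of 112 at 3501 to 4000 (33.9%), 79 of 123 at 4001 to 5000 (64.2%) and 34 of the 35 cells over 5000 genes (97.1%). The libraries differed widely in it. It made up 11 of the 106 cells over 3000 genes in Control 1 (10.4%), 119 of 279 in Control 2 (42.7%), 48 of 75 in hucMSC-Exo 1 (64.0%) and 6 of 69 in hucMSC-Exo 2 (8.70%), so that each group had 1 high and 1 low library.

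**Figure D2:**
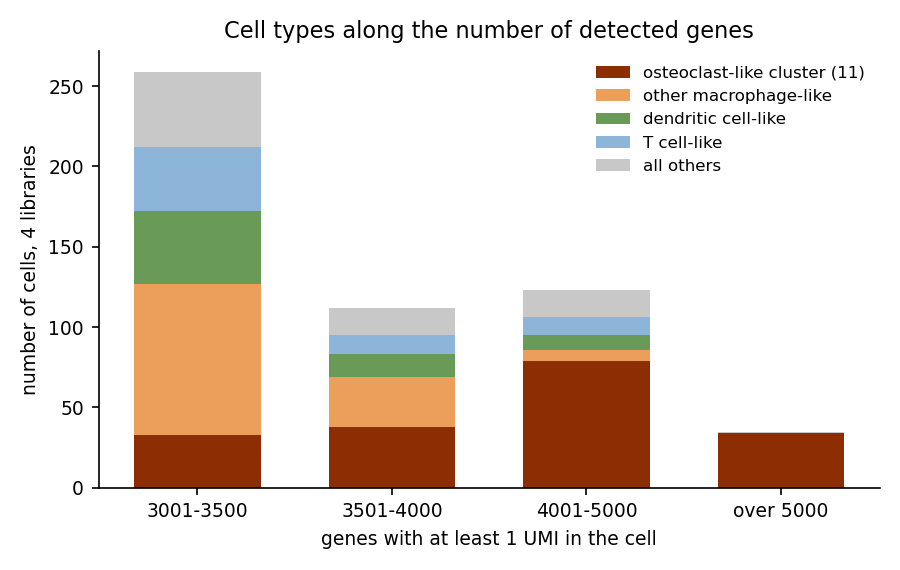
Number of cells (vertical axis, 4 libraries together) by the number of genes detected in the cell, coloured by cluster group. The osteoclast-like cluster holds 33 of 259 cells in the lowest bin and 34 of 35 in the highest.

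Other macrophage-like cells came mainly from 2 clusters. The cluster led by Ccl8, Ccl12 and Folr2, genes of tissue-resident macrophages, gave 75 of its 559 cells, with 41 from Control 1, 25 from Control 2, 0 from hucMSC-Exo 1 and 9 from hucMSC-Exo 2. The cluster led by Pdpn and Spic gave 49 of 509, with 6, 35, 2 and 6 cells in the same order. Monocyte genes led a cluster that gave 7 of 495 cells. The dendritic cell-like cluster led by Cd209a and Mgl2, 2 lectin receptors, gave 65 of 401.

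Fibroblast-like and keratinocyte-like cells made up more of the cells over 3000 genes in both hucMSC-Exo libraries than in both Control libraries, while the 3 main leukocyte classes overlapped between the groups. From here on, 4 values in a sentence are in the order of the 2 Control and then the 2 hucMSC-Exo libraries. Macrophage-like cells were 56.6%, 65.6%, 66.7% and 33.3% of the cells over 3000 genes. Fibroblast-like cells were 0.943%, 2.87%, 9.33% and 11.6%, and keratinocyte-like cells 2.83%, 2.87%, 4.00% and 10.1%. By the letters, the values of each of these last 2 classes overlap too. By title the exact permutation test gave p = 0.333 for both, and after Benjamini-Hochberg adjustment over 9 classes the adjusted permutation p was 1. The hucMSC-Exo minus Control difference was 8.56 percentage points for fibroblast-like and 4.22 for keratinocyte-like cells. Without hucMSC-Exo 2 the keratinocyte-like difference was 1.15 and without hucMSC-Exo 1 it was 7.30, and at Leiden resolution 0.6 the groups overlapped (3.56 points, exact permutation p = 1). As a share of all kept cells, keratinocyte-like cells over 3000 genes were 0.284%, 0.340%, 0.201% and 0.338%, and so no more frequent in hucMSC-Exo, while fibroblast-like ones were 0.0945%, 0.340%, 0.469% and 0.386%. Among the cells over 3000 genes, the hucMSC-Exo minus Control difference was -11.1 points for macrophage-like, 2.69 for T cell-like and 0.278 for dendritic cell-like cells. Each had an exact permutation p of 1. Without hucMSC-Exo 2 the macrophage-like, T cell-like and dendritic cell-like differences were 5.57, -4.84 and -5.87, and without Control 2 the dendritic cell-like difference was -2.84. Without the osteoclast-like cluster, a setting chosen after the data were seen, the groups no longer overlapped in macrophage-like cells (-28.6 points) or dendritic cell-like cells (3.37 points), each with an exact permutation p of 0.333.

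Within the macrophage-like class, cells over 3000 genes differed from cells of 200 to 3000 genes in genes of cell fusion, of the cell cycle and of monocytes. Ratios were taken within each library from summed cells, in UMIs of a gene per 1000000 UMIs (CPM), and a gene was counted when it was past 2-fold the same way in all 4 libraries. Before each ratio 0.5 UMI was added to the summed counts. Of 8532 genes tested, 283 were higher (3.32%) and 76 were lower (0.891%), or 277 and 88 with no UMI added, a setting chosen after the data were seen. These are descriptions of cells selected on a related measure, with no test. Leaving out Control 1 gave 615 higher and 245 lower, and leaving out hucMSC-Exo 2 gave 511 and 199.

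Of 14 genes of cell fusion and osteoclasts, 6 were higher and 0 lower, with a median log2 ratio of 1.65 beside 0.21 over all genes tested. Ctsk was at 2237 CPM in Control 1, 3678 in Control 2, 5571 in hucMSC-Exo 1 and 1679 in hucMSC-Exo 2, against 17.3, 71.2, 345 and 25.4 in macrophage-like cells below the limit. Acp5 was at 2382, 2951, 4395 and 1092 CPM, against 59.7, 152, 379 and 72.6. Both were thus many times higher in each library, with the smallest gap in hucMSC-Exo 1. Dcstamp, a second membrane protein of precursor fusion, was at 45.0, 84.2, 75.0 and 36.3 CPM, with a median log2 ratio of 3.19. Nfatc1, the transcription factor that drives osteoclast formation, was at 282, 587, 636 and 332 CPM, against 27.0, 50.5, 56.7 and 21.9. Spp1 (osteopontin) and Gpnmb, markers shared with lipid-laden macrophages, had median log2 ratios of -0.46 and -0.19.

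Among the genes with the largest median log2 ratios were Ctsk (5.86), Slc9b2 (5.68), Mmp9 (5.12), Cyp2s1 (4.75) and Coq8a (4.16). Mmp9 encodes a gelatin-degrading protease that osteoclasts secrete. Ppargc1b, a coactivator of mitochondrial biogenesis, followed at 3.89, and Birc5 (survivin), which acts in cell division, at 3.87. The lysosome list did not share in this: 1 of 25 genes was higher, the proton pump subunit Atp6v1b2, and the median was -0.09. Of 24 ribosome biogenesis genes 1 was higher, Srm (spermidine synthase), with a median of 1.01. Glycolysis genes gave 0 of 15 either way and a median of 0.22, and immediate early and heat shock genes 0 of 13 and -0.84.

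Of 7 monocyte marker genes 5 were lower and 0 higher, with a median log2 ratio of -3.22. The 5 were Ly6c2, Plac8, Chil3, Vcan and Ms4a4c, while Ccr2 and F13a1 were not past 2-fold in all 4 libraries. The 2 sides of the limit drew on different clusters. The cluster led by monocyte genes gave 7 of the 316 macrophage-like cells above it and 488 of the 1647 below it. The part of that cluster in these values was not tested. Ly6c2 was at 31.5, 7.43, 0 and 33.5 CPM against 494, 333, 71.0 and 780, and Plac8 at 47.7, 24.8, 0 and 168 against 648, 706, 427 and 1828. Chil3, a chitinase-like protein of alternatively activated cells, had a median log2 ratio of -3.74, and the chemokine gene Ccl24 one of -5.47. Retnla, another gene of alternative activation, had 0 UMIs in these cells in each library. Set against a floor of 3 UMIs per library, it was at least 2.61-fold, 25.6-fold, 5.20-fold and 25.2-fold lower.

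The 7 MHC class II genes tested had a median log2 ratio of -1.76, with 0 past 2-fold in all 4 libraries. Cd74, the invariant chain, was at 3215, 1519, 487 and 4726 CPM against 9036, 5338, 7351 and 5744. The gap was wide in hucMSC-Exo 1 and narrow in hucMSC-Exo 2.

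Without the osteoclast-like cluster, a setting chosen after the data were seen, few of these differences met the same rule. Of 7619 macrophage-like genes tested then, 23 were higher and 7 lower. hucMSC-Exo 1 had 2 cells left over 3000 genes in this setting, and 19 of the 23 had 0 UMIs in them and counted as higher through the added 0.5 UMI alone. With no UMI added 3 genes were higher and 22 lower. Of 13 fusion genes 1 was among the 23, Atp6v0d2, at 68.8, 93.2, 0 and 78.3 CPM against 1.93, 23.7, 5.06 and 14.6, and so higher in 3 of the 4 libraries. The median of the fusion list was 0.46 and that of the MHC class II genes 0.02. Of the 7 monocyte markers 4 were among the 7 lower genes (Ly6c2, Plac8, Chil3 and Vcan), with 0 UMIs of each in the 2 cells of hucMSC-Exo 1. The cluster led by monocyte genes was kept in this setting, and its part was not tested.

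The planned G2/M list and a shorter list of mitosis genes ran in opposite directions across the limit. To compare cells at 1 depth, each was thinned to 2000 UMIs, which left out 0 cells over 3000 genes and 105, 278, 189 and 352 of the others. The G2/M list was held by 74.5%, 68.8%, 70.7% and 72.5% of the cells over 3000 genes, against 79.0%, 77.2%, 81.8% and 76.0% of the others, and so by fewer in every library (528 of the 529 cells and 5810 of the 6443 others without thinning). The mean difference of -6.87 points was -0.997 after thinning to fewer UMIs and -2.11 with 1 or more UMIs as the rule for holding the list. It was held by 505 of 598 neutrophil-like cells too (84.4%), which do not divide. The list of 12 mitosis genes, among them Mki67 and Top2a, was taken from it after the data were seen. The S phase list had no common direction. It was held by 42.5%, 45.2%, 37.3% and 39.1% of the cells over 3000 genes, against 45.0%, 32.0%, 39.9% and 33.1% of the others, and so by fewer in Control 1 and hucMSC-Exo 1 and by more in Control 2 and hucMSC-Exo 2. The mean difference of 3.54 points (SD 7.62) was 0.316 without Control 2. Without thinning 524 of the 529 cells and 4028 of the others held it. Mki67 lies on chromosome 7 at 135689784 to 135716361 and Top2a on chromosome 11 at 98992943 to 99024189.

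A cell counted as holding a list with 2 or more of its UMIs. The 12 mitosis genes were held by a larger share of the cells over 3000 genes in every library, by 15 of 106 cells in Control 1 (14.2%), 57 of 279 in Control 2 (20.4%), 20 of 75 in hucMSC-Exo 1 (26.7%) and 14 of 69 in hucMSC-Exo 2 (20.3%). In cells of 200 to 3000 genes the shares were 4.13%, 2.12%, 5.79% and 3.52%. Neutrophil-like cells, which do not divide, gave 6 of 598 (1.00%), at the same thinned depth. Without thinning, 219 of the 529 cells and 464 of the 6443 others held the list.

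Which cells these were depended on the cluster. Of the 63 T cell-like cells over 3000 genes 43 held mitosis genes (68.3%), against 140 of 1664 below the limit (8.41%), and 41 of the 43 lay in the T cluster led by histone genes and Nusap1, a spindle protein. In that cluster the share was 41 of 43 above the limit and 113 of 127 below it. With most of its cells holding the list on both sides, this share cannot show whether the amount differed within it. Not all cells of that cluster held T cell genes. After thinning, 31 of 43 above the limit and 104 of 127 below it had 2 or more UMIs of these genes. Over all T cell-like cells, the 6 NK cell markers summed to 1142, 2024, 409 and 130 CPM above the limit. Below it they summed to 198, 188, 135 and 115 CPM. Of macrophage-like cells 47 of 316 held mitosis genes (14.9%), against 14 of 1397 (1.00%).

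Among macrophage-like cells, the osteoclast-like cluster gave 42 of the 47. Its share was 42 of 184 (22.8%), with 0 of 11 in Control 1, which allows up to 27.3%, 30 of 119 in Control 2, 11 of 48 in hucMSC-Exo 1 and 1 of 6 in hucMSC-Exo 2. Below the limit it was 3 of 35. The cluster led by Ccl8 and Folr2 gave 3 of 75 (4.00%) and that led by Pdpn and Spic 1 of 49 (2.04%), against 4 of 453 (0.883%) and 1 of 435 (0.230%) below the limit. The single cell of the latter came from hucMSC-Exo 2, and in the former hucMSC-Exo 2 gave 0 of 9 against 2 of 113, so no direction is read from these 2 clusters. Of the dendritic cell-like cells 8 of 68 held them (11.8%), against 7 of 354 (1.98%), with 0 of 18 in Control 1, 2 of 30 in Control 2, 3 of 6 in hucMSC-Exo 1 and 3 of 14 in hucMSC-Exo 2. Below the limit these were 2 of 37, 3 of 148, 0 of 72 and 2 of 97, so Control 1 ran the other way.

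**Figure D3:**
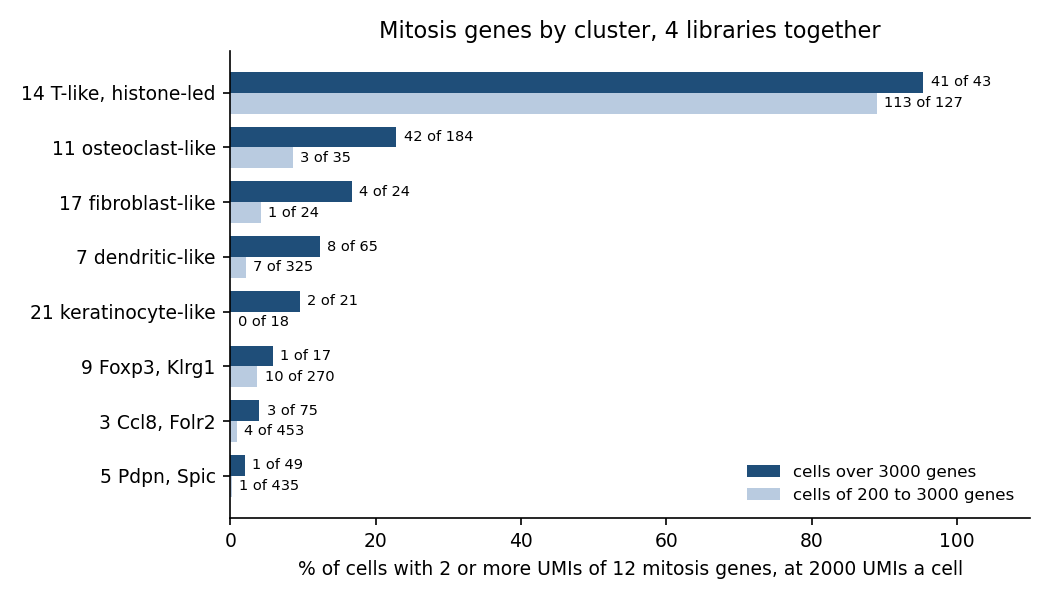
Percentage of cells with 2 or more UMIs of 12 mitosis genes after thinning to 2000 UMIs (horizontal axis), by cluster, for cells over 3000 genes and cells of 200 to 3000 genes. The T cell-like cluster led by histone genes is high on both sides of the limit (41 of 43 and 113 of 127), and among the other clusters drawn the osteoclast-like one is the highest above it, with 42 of 184.

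Within the macrophage-like class, 7 of 30 G2/M genes and 5 of 24 S phase genes were higher in cells over 3000 genes and 0 lower, with median log2 ratios of 1.12 and 1.08. Birc5 was at 36.0, 56.3, 71.8 and 47.5 CPM against 5.13, 3.08, 2.31 and 3.84. Mcm6, part of the replicative helicase, was at 14.4, 63.5, 47.1 and 36.3 CPM against 5.78, 10.7, 5.07 and 7.69. These levels were low but above those below the limit in all 4 libraries. Without the osteoclast-like cluster 1 of 19 G2/M genes (Top2a) and 1 of 15 S phase genes (Rrm1) counted as higher, both with 0 UMIs in the 2 cells left in hucMSC-Exo 1, and the medians were 0.22 and 0.35 beside 0.20 over all genes.

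Among T cell-like cells, genes of division were among those higher above the limit. Of 7685 genes tested, 116 were higher (1.51%) and 18 lower (0.234%), or 82 and 47 with no UMI added. Of 45 G2/M genes 10 were higher and of 37 S phase genes 12, with medians of 2.04 and 1.42 beside 0.11 over all genes. Most of the 116 thus lay in neither list. The G2/M median was 2.15, 2.23, 0.345 and 2.10 in the 4 libraries, and so low in hucMSC-Exo 1. Mki67 was at 708, 354, 292 and 418 CPM against 103, 60.6, 120 and 90.1. The largest median ratios were those of Mxd3 (3.06), a transcriptional repressor of proliferating cells, Sgo2a (2.86), which guards chromosome cohesion, and Asf1b (2.79), a histone chaperone. Cd40lg, the ligand by which helper T cells activate antigen-presenting cells, was lower, at 5.71, 1.86, 0 and 9.29 CPM against 33.6, 76.7, 57.2 and 46.1. The cluster with Cd40lg among its leading genes gave 9 of the 63 T cell-like cells above the limit. Below the limit it gave 522 of 1738, and its part in the Cd40lg values was not tested.

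Without the cluster led by histone genes, a setting chosen after the data were seen, 26 genes were higher and 11 lower, or 7 and 164 with no UMI added. Control 1 and hucMSC-Exo 1 then had 2 cells each. Leaving out Control 1, Control 2, hucMSC-Exo 1 or hucMSC-Exo 2 gave 191, 175, 249 and 190 higher and 45, 34, 40 and 68 lower genes. hucMSC-Exo 1 had 5 T cell-like cells over 3000 genes, and their 8 MHC class II genes summed to 5173 CPM, against 160, 76.4 and 79.0 in the other libraries. The part of those transcripts in the values of hucMSC-Exo 1 was not tested.

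Among 5 leukocyte lineage lists, pairs were rare in the cells over 3000 genes after thinning, and all were pairs of T cell and phagocyte markers. No dendritic cell list was among the 5. The T cell list held Cd3d, Cd3e, Cd3g, Trac and Trbc2, and the phagocyte list 8 genes such as Csf1r, C1qa and Adgre1. After thinning, both were held by 2 of 106 cells in Control 1 (1.89%), 5 of 279 in Control 2 (1.79%), 0 of 75 in hucMSC-Exo 1, which allows up to 4.00%, and 3 of 69 in hucMSC-Exo 2 (4.35%). In all, this was 10 of 529 (1.89%), against 21 of 5519 cells of 200 to 3000 genes (0.381%). Without thinning the counts were 37 and 42.

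As a measure of background at the same thinned depth, neutrophil-like cells held the T cell list in 6 of 598 (1.00%) and the phagocyte list in 21 of 598 (3.51%), and T cell-like cells of 200 to 3000 genes held the phagocyte list in 3 of 1664 (0.180%). No other pair among the T cell, phagocyte, neutrophil, basophil or mast cell, and B or plasma cell lists occurred in the 529 cells after thinning, and each 0 of 529 allows up to 0.567%. Counting any such pair, the cells of 200 to 3000 genes had 55 of 5519 (0.997%). Pairs with keratinocyte or fibroblast markers cannot be read this way. Keratin genes were held by 371 of 598 neutrophil-like cells (62.0%) and collagen genes by 191 (31.9%), and by fewer of the cells over 3000 genes (17.4% and 6.81%, or 454 and 394 of 529 without thinning).

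The 10 cells with both lineages differed widely in the amount of each. Without thinning, their T cell genes had a median of 36.5 UMIs (7 to 92) and their phagocyte genes 39 UMIs (11 to 130). The cells had 12200 to 27660 UMIs, and the deepest had the lowest count of both lists. In the 21 cells below the limit the medians were 15 and 8 UMIs. Those cells were also less deep, at a median of 8108 against 14210.5 UMIs. Scrublet, which scores each cell against artificial doublets, marked 5 of the 10. Over all cells it marked 48 of 7178 (0.669%), among them 13 of the 529 (2.46%) and 34 of the 6443 (0.528%).

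By cluster, 3 of the 10 lay in the dendritic cell-like cluster led by Cd209a, 2 in the monocyte cluster, 2 in that led by Ccl8, and 1 each in the clusters led by Pdpn, by osteoclast genes and by Foxp3. In the osteoclast-like cluster this was 1 of 184 (0.543%), or 7 without thinning, and Scrublet marked 0 of 184, which allows up to 1.63%. Its phagocyte list was held by 81 of 184 cells after thinning (44.0%), and Ptprc, the pan-leukocyte gene on chromosome 1 at 138062861 to 138175708, by 165 of 184 without thinning (89.7%). In the T cluster led by histone genes, the phagocyte list was held by 0 of 43, which allows up to 6.98%. After thinning, these pairs were thus rare in the osteoclast-like cluster, but this count cannot show how many of its cells were doublets. Its cells over 3000 genes had a median of 24320 UMIs, so thinning kept a small part of each list. The phagocyte list itself was held by 183 of 184 cells without thinning. A pair of T cell and phagocyte markers also cannot mark a doublet of macrophage-like cells. The 43 cells of the histone-led T cluster were too few to set these pairs below the 1.89% of all cells over 3000 genes.

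**Figure D4:**
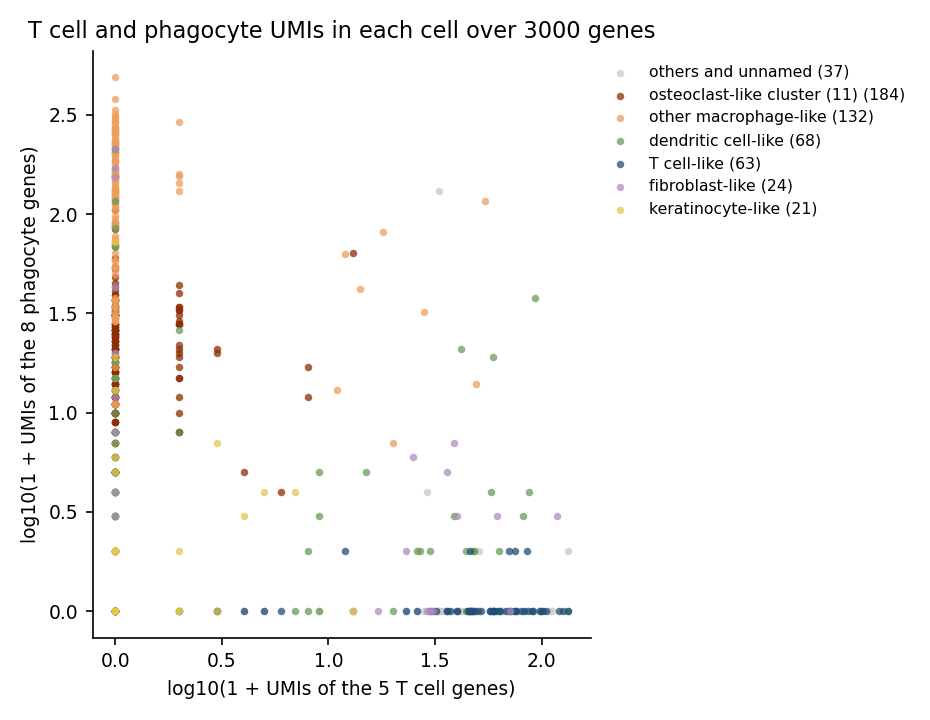
UMIs of the 5 T cell genes (horizontal axis) and of the 8 phagocyte genes (vertical axis) in each of the 529 cells over 3000 genes, without thinning, on log10(1 + UMIs) axes, coloured by cluster group. Cells lie mainly along 1 axis or the other, and the 10 cells that held both lists after thinning have 7 to 92 T cell and 11 to 130 phagocyte UMIs.

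T cell markers were also found in the dendritic cell-like cluster, after thinning mainly without phagocyte markers. Without thinning, 25 of its 65 cells over 3000 genes held the T cell list, 40 the phagocyte list and 10 both. The thinned counts follow. Of its 65 cells over 3000 genes 19 held the T cell list (29.2%), 3 of them with the phagocyte list, with 5 of 18 in Control 1, 6 of 27 in Control 2, 1 of 6 in hucMSC-Exo 1 and 7 of 14 in hucMSC-Exo 2. Below the limit it was 13 of 325 (4.00%). The 19 cells had a median of 45 T cell UMIs, against 0 in the other 46. All 19 held the MHC class II list, and 9 of 19 held the dendritic cell list (47.4%), close to 21 of 46 (45.7%). Their depth was no greater, at a median of 16295 against 17466 UMIs, but they had more genes, 3513 against 3216. Scrublet marked 5 of the 19 and 1 of the 46. In the monocyte cluster the T cell list was held by 4 of 7 cells over 3000 genes, against 5 of 452 (1.11%), and in the plasmacytoid dendritic cell-like cluster by 2 of 4, against 1 of 43 (2.33%).

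The same T cell genes led the dendritic cell-like comparison across the limit. Of 4806 genes tested 34 were higher (0.707%) and 1 lower (0.0208%), Ccl22, a chemokine of mature dendritic cells. A smaller dendritic cell-like cluster, itself led by Ccl22, gave 3 cells above the limit, all in Control 2, and 29 below it. Its part in the Ccl22 value was not tested. Trbc1, a T cell receptor constant region, was at 142, 64.2, 147 and 164 CPM against 27.0, 0, 29.1 and 1.08. Cd3d was at 209, 120, 274 and 210 CPM against 51.3, 1.84, 58.1 and 8.62. Trat1, Cd2 and Ctla2a were higher with them, beside Top2a, Stmn1 and Hist1h2ap of dividing cells (those that belong to none of the marker lists were chosen after their values were seen). Of the fixed lists, 3 of 15 G2/M genes and 1 of 7 S phase genes were higher, with medians of 0.78 and 0.76 beside 0.16 over all genes.

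The fibroblast-like cluster, led by Apod and Prlr, also held the T cell list, in 13 of 24 cells over 3000 genes (54.2%) and in 15 of 24 below the limit. Of the 13, 10 held the fibroblast list, all 13 had Ptprc, 0 held the MHC class II list and Scrublet marked 0. Its share of T cell markers was therefore alike on both sides of the limit. Ptprc was not particular to the 13. Without thinning it was detected in 23 of 24 cells above the limit and in 23 of 24 below it. Nearly all cells of this fibroblast-like cluster thus held the pan-leukocyte gene. In the keratinocyte-like cluster the T cell list was held by 1 of 21 cells, and Ptprc was detected in 16 of 21 without thinning. Both the T cell and the phagocyte list were held by 4 of these 21 cells without thinning, and by 6 of the 24 fibroblast-like ones. The neutrophil list was held by 6 of the 21 keratinocyte-like cells after thinning, against 6 of 18 below the limit. Without thinning it was held by 13 of the 21. After thinning, no other cell of the 529 held the neutrophil list.

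Across all 529 cells, no gene passed edgeR's quasi-likelihood test between the groups. Of 9465 genes tested, 0 had an adjusted p under 0.05 (0%), 254 had an unadjusted p under 0.05 (219 of them higher in hucMSC-Exo), and DESeq2 called 26 (0.275%), 25 of them higher. The 25 included 3 of the 6 fibroblast markers (Col1a1, Col1a2 and Col3a1). Col6a2, a chain of collagen VI, was at 8.85 and 9.43 CPM in Control and 75.6 and 70.1 CPM in hucMSC-Exo (log2 difference 2.98, edgeR adjusted p = 0.620, DESeq2 adjusted p = 9.43e-06). Col6a1, Col6a3, Apod, Sparc and Ebf1 were among the 25 with it, and these genes were chosen after their values were seen.

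The 6 fibroblast markers summed to 133 and 296 CPM in the Control cells over 3000 genes and to 937 and 3026 CPM in the hucMSC-Exo cells, with Col3a1, Col1a1, Col1a2 and Col1a2 the most abundant. In cells of 200 to 3000 genes they summed to 250, 455, 251 and 299 CPM. The share of fibroblast-like cells moved with them, and its part in the result was not tested. Keratinocyte markers summed to 1097, 624, 882 and 3084 CPM with Krt14 the most abundant. Neutrophil markers summed to 672, 645, 119 and 3629 CPM, and S100a9 alone was at 1885 CPM in hucMSC-Exo 2. The part of these lists was not tested either. The gene lower in hucMSC-Exo by DESeq2 was Gzma, granzyme A of cytotoxic cells, at 134 and 243 against 9.07 and 0.899 CPM (edgeR adjusted p = 0.663, DESeq2 adjusted p = 3.13e-08, the smallest of the 26). NK cell-like cells over 3000 genes numbered 5, 3, 1 and 0. The 6 NK cell markers, Gzma included, summed to 250, 302, 24.2 and 36.0 CPM, with Gzma, Gzma, Prf1 and Prf1 the most abundant. The part of NK cells in the result was not tested. Without hucMSC-Exo 1 edgeR called 139 genes, and without hucMSC-Exo 2 it called 150 (41 of them higher), where the lone library was assumed to vary like the others. Without the filter on low counts it called 201.

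Among macrophage-like cells over 3000 genes no gene passed between the groups by edgeR (0 of 7824, 0%, with 35 at an unadjusted p under 0.05) or by DESeq2 (0 of 7824, 0%, with 19). The libraries drew these cells from different clusters, and each group had 1 library with many and 1 with few osteoclast-like cells. Without the filter on low counts edgeR called 25 genes.

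Among T cell-like cells over 3000 genes no difference between the groups could be drawn. hucMSC-Exo 1 had fewer than 10 such cells, so that the planned edgeR test set the 15 cells of hucMSC-Exo 2 against 13 of Control 1 and 30 of Control 2. It called 49 of 3839 genes (1.28%), 37 of them higher in hucMSC-Exo 2, with 170 at an unadjusted p under 0.05, and DESeq2 called 6 (0.156%). These calls compare 1 library, assumed to vary like the others, with 2, and do not carry over to the groups. At over 2500 genes, where all 4 libraries entered, edgeR called 1.

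The values below are given per library as a description. Irf4, a transcription factor of activated T cells, was at 5.71 and 18.6 CPM in Control 1 and Control 2 and at 255 CPM in hucMSC-Exo 2, and the 5 cells of hucMSC-Exo 1 had 117 CPM. Gzma was at 725, 1728 and 4.64 CPM in the 3 libraries, and at 219 CPM in hucMSC-Exo 1. Il5, a type 2 cytokine, was at 0, 421 and 4.64 CPM, so that the Control libraries lay on both sides of hucMSC-Exo 2. S100a9, a neutrophil gene, was at 0, 229 and 0 CPM. The NK cell receptor gene Klre1 was at 131, 76.4 and 4.64 CPM, and the 6 NK cell markers summed to 1142, 2024 and 130 CPM with Gzma, Gzma and Prf1 the most abundant, and to 409 CPM in hucMSC-Exo 1. Their part in these values was not tested.

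Several of the genes higher in hucMSC-Exo 2 came from 1 cell. That cell lay in the T cluster led by histone genes, with 30444 UMIs, 4836 genes, 0 UMIs of the T cell list and 18 of the basophil or mast cell list, and Scrublet did not mark it. It held all 151 UMIs of Ccl3, all 259 of Ccl4 and all 42 of Ccl6 found in the T cell-like cells of its library over 3000 genes, and 110 of 124 UMIs of Mt2 (metallothionein). Of Hdc, the histamine-forming enzyme, it held 15 of 53. Of the keratin genes Krt17 and Krt15 it held 23 of 56 and 2 of 56 UMIs. Without this cell, a setting chosen after the data were seen, edgeR called 35 genes between the same 3 libraries, of which 30 were among the 49, and 9 of the 49 could no longer be tested.

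The T cell-like cells also differed in cluster between the libraries. Of the cells over 3000 genes 11 of 13 in Control 1, 20 of 30 in Control 2, 3 of 5 in hucMSC-Exo 1 and 9 of 15 in hucMSC-Exo 2 lay in the cluster led by histone genes, and 2, 1, 1 and 5 in that led by Il17f, Npnt and Blk. Blk, a kinase of interleukin-17 producing gamma delta T cells, was at 22.8, 42.8 and 190 CPM in Control 1, Control 2 and hucMSC-Exo 2, and was chosen after its values were seen. Krt15, a keratin of basal keratinocytes, was at 17.1, 14.9 and 260 CPM, and the 6 keratinocyte genes summed to 491, 238 and 1082 CPM with Krt14 the most abundant. In hucMSC-Exo 1 they summed to 248 CPM, near Control 2. The part of that cluster and of these markers in the values was not tested.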

How the data were processed

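Matrices of UMI counts per gene and cell were made by the authors with Cell Ranger 6.1.2 on mm10 and used as deposited. The methods state that doublets were removed, but not whether before deposit, and cells over 3000 genes and over 10% mitochondrial UMIs are present; no cell was removed as a doublet here. The study states more cells per mouse than the files hold barcodes, and it is not stated whether its separation of Ptprc-positive cells preceded deposit. Cells of 200 genes or more and at most 10% mitochondrial UMIs were kept (6972) and clustered with scanpy 1.11.5 and leidenalg 0.10.2 on 2000 variable genes and 30 components at resolution 1 (Python 3.11.15). Clusters were named by the marker list with the highest mean difference in share of cells, with a rule settled after the clusters were seen. Scrublet was run in scanpy at 6%. Summed UMIs were tested with edgeR 4.0.16 (TMM, at least 10 cells per library) and DESeq2 1.42.0, and single shares with exact permutation. The check of edgeR and DESeq2 on simulated data used less spread between libraries than these data have. It therefore does not show what changes the tests could find here. Positions are from GENCODE. Genes named are those of the lists, the 10 largest and smallest median ratios per class and up to 10 genes each way past the test. Members and lists were chosen with earlier results of these data known.
Some results on single genes are not reported here.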

Additional observations from a re-analysis of the deposited data

How the results depend on the processing

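Over 173 combinations of result and alternative, 129 kept their direction with their side of the threshold or within the spread between libraries (counts of genes within 1.5 times), 36 moved and 8 reversed, and the cause was not tested except where fewer samples or cells entered. The share of cells over 3000 genes, the fibroblast-like share, the lineage pairs and the S phase list kept their direction under each alternative run, but not their size. The first was -1.53 points at over 4000 genes, where the groups overlapped (exact permutation p = 0.667), and the second 26.6 there. The pairs, 1.61 points (SD 1.80 over libraries), ran from 0.885 without Scrublet-marked cells to 2.94 after thinning to more UMIs, and from 0.822 to 2.29 over leave-one-out. The S phase list, 3.54 points (SD 7.62), ran from 3.55 to 9.10 (over 4000 genes), with 8.27 at 3 or more UMIs and 7.28 after thinning to fewer UMIs, and from 0.316 to 5.58 over leave-one-out. Both main values were smaller than their SD, and for the pairs hucMSC-Exo 1 ran the other way (0 of 75 against 5 of 1227). At over 2500 and over 4000 genes the dendritic cell-like difference was -2.22 and -2.89 points, and at over 4000 the keratinocyte-like one was -2.69. The G2/M list difference between cells over 3000 genes and the others, -6.87 points as a mean over libraries, was -0.997 after thinning to fewer UMIs, -2.11 at 1 or more UMIs and 16.5 with the 12 mitosis genes.

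Higher and lower genes numbered 853 and 248 (macrophage-like) and 304 and 87 (T cell-like) at 1.5-fold, 512 and 533 (macrophage-like) at over 4000 genes, 23 and 7 without the osteoclast-like cluster (3 and 22 with no UMI added), and 26 and 11 without the T cluster led by histone genes (7 and 164). With no UMI added and all clusters, 47 genes were lower in T cell-like cells (settings chosen after the data were seen). Between groups, DESeq2 called 26 genes in all cells and 6 in T cell-like cells. With no filter on low counts edgeR called 201 in all cells and 25 in macrophage-like cells, and at over 2500 genes 1 in T cell-like cells.

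Leaving out each library in turn, the macrophage-like difference ran from -27.8 to 5.57 points, the T cell-like one from -4.84 to 10.2, the keratinocyte-like one from 1.15 to 7.30 and the dendritic cell-like one from -5.87 (-2.84 without Control 2) to 6.42. Higher and lower genes ran from 316 to 615 and 86 to 245 in macrophage-like and from 175 to 249 and 34 to 68 in T cell-like cells, and edgeR calls from 0 to 150 in all cells. With the replicate block edgeR called 0 genes in all and 0 in macrophage-like cells, and changed no call. Same-numbered libraries deviated in opposite ways (correlations -0.423 and -0.514), and with the crossed pairing as block, chosen after the data were seen, edgeR called 0 genes in both. For T cell-like cells the block and leave-one-out could not be fitted.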
